A study of Mus musculus with 34 samples.

Results

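The cytochrome P450 genes of the mouse were followed through the epididymal fat of animals on a normal or a high fat diet over several generations. Every array probe with 1 gene symbol of the form Cyp, number, letters, number was taken. This gave 65 genes with 1 probe each, out of 22879 genes and unnamed probes tested, and they belong to 15 P450 families. The series paired RNA of 2 diet groups on each of 34 two-colour arrays, in experiment 1 (12 arrays, Trizol extraction) and experiment 2 (22 arrays, Qiagen extraction), with each pairing run in both dye orientations. STD mice ate the normal diet. HF0 mice were high-fat-fed offspring of STD mice, HF1 of HF0, HF3 of an HF2 generation that is not among the arrays, and HF4 of HF3. HF1-REV mice came from HF0, HF3-REV from HF2 and HF4-REV from HF3, and all 3 of these groups ate the normal diet. Of strain, age, diet composition and the number of animals per RNA extract the labels say nothing, and each group is 1 extract per experiment as far as the labels show.

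Cytochrome P450 enzymes are heme proteins that use oxygen and electrons, supplied by P450 oxidoreductase in the endoplasmic reticulum or by ferredoxin in mitochondria, to oxidise lipids and foreign compounds. Some families have fixed tasks in making steroids, bile acids, active vitamin D or in clearing retinoic acid, while the large CYP2, CYP3 and CYP4 families take many fatty acids and drugs. Most members are known best from liver, but fat tissue also expresses a few, among them CYP2E1, which oxidises ethanol, acetone and fatty acids, and CYP1B1, which oxidises estrogens and retinoids.

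Values are log2 ratios, given as the first-named group over the second and coded as Cy5 over Cy3. The numerator dye and the log base of the deposited ratios are unknown. The log was read as base 2, and sizes hold on that reading only. If Cy3 was the numerator, every sign turns, so positive and negative mark opposite directions without saying which is more RNA. A group value is the log2 level of a group in 1 experiment relative to the mean of STD, HF0, HF3 and HF4 of that experiment, and there are 12 of them. Fitted ratios are given ± SE from limma, with the p-value adjusted over all 22879 features and a threshold of 0.05. STD, HF0, HF3 and HF4 have n = 2 experiments, whereas HF1 and each of the 3 REV groups, with n = 1, borrow the spread of the others. In experiment 2 STD shared arrays with HF0 only, so HF3 and HF4 against STD are indirect there and pass through HF0. The p-values measure the spread between extracts, which may be technical, and no intensities were given, so no gene's level over background is known.

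Some extracts stood apart in genes of neighbouring tissues. The 20 male germ cell markers had a median of 3.57 and 3.99 in HF4 over HF0 in experiments 1 and 2, and of -1.16 in HF1-REV over HF0. In the same order of experiments it was 2.20 and 3.25 in HF3 over HF0, and 1.11 and 2.83 in STD over HF0. The 12 measured epididymis markers (of 15 listed) had a median of 5.05 in STD over HF0 in experiment 2, against 1.44 in experiment 1. The 11 measured adipocyte markers (of 12) had medians between -0.09 and 0.94 over HF0. The medians of the hepatocyte markers, 6 of 7 measured, stayed between -0.18 and 0.16 over HF0, and single markers between -0.48 and 0.64. In bulk tissue, fewer cells of a type and less RNA per cell cannot be told apart. The identity of the tissue could be checked in ratios only. On single arrays the SD of all log ratios ran from 0.320 to 0.826, and the 2 arrays of HF4 with HF4-REV were the widest. The turned ratios of HF1 over HF1-REV correlated at -0.31 between the dye orientations over all features, so their mean rests on opposing arrays.

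Most P450 genes varied about as widely over the extracts as other genes on the array. The range of a gene over the 12 group values had a median of 0.79 for the 65 P450 genes, from 0.23 for Cyp2c23, an arachidonic acid epoxygenase, to 2.32 for Cyp2e1. The median over all features was 0.74. A range above 1 was seen for 17 of 65 P450 genes (26.2%) and for 29.3% of all features. After Cyp2e1 the widest ranges belonged to Cyp2a12 (2.27), Cyp2j13 (1.66), Cyp2s1 (1.63), Cyp26b1 (1.57), Cyp1a2 (1.56), Cyp4a14 (1.53), Cyp3a25 (1.46), Cyp17a1 (1.34) and Cyp2r1 (1.30). These 10 genes come from the CYP1, CYP2, CYP3, CYP4, CYP17 and CYP26 families, and those from Cyp2e1 to Cyp2s1 in this order are all CYP2 genes. CYP2 is also the largest family among the 65 genes.

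**Figure D1:**
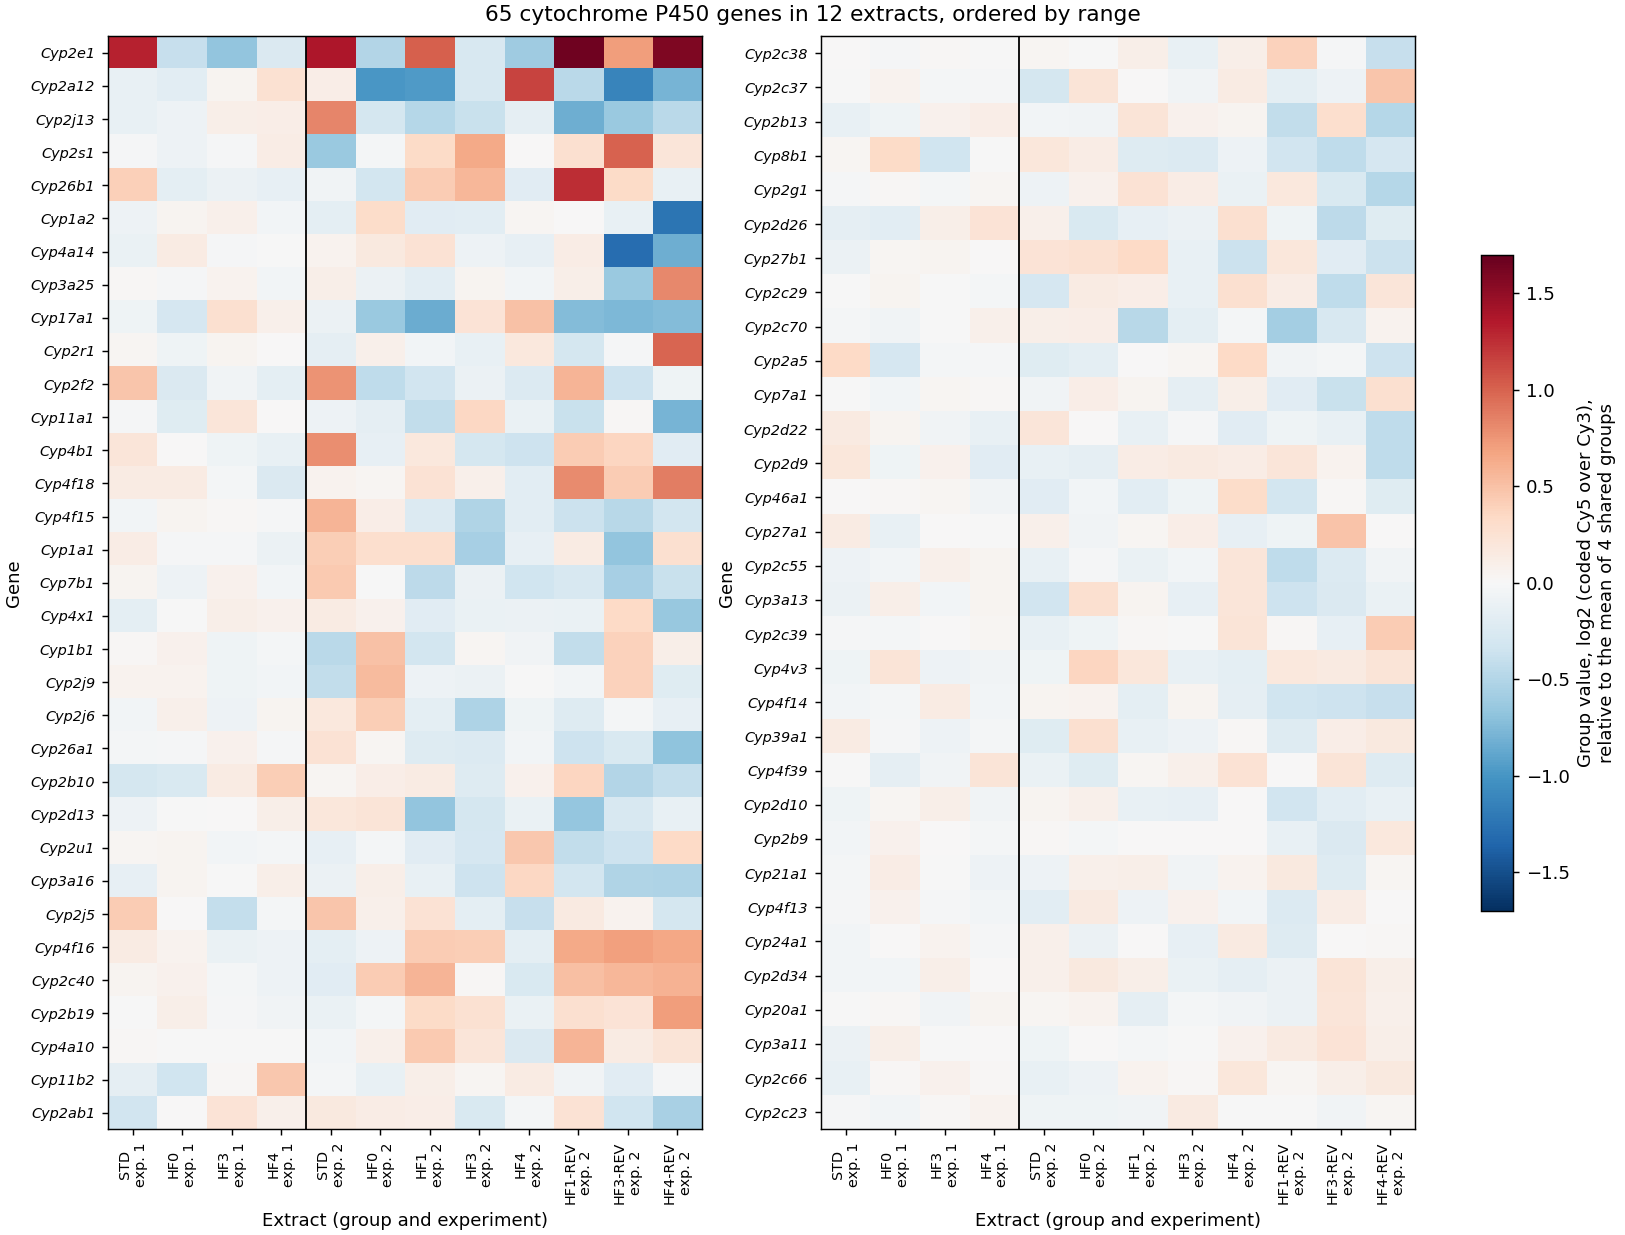
Group values (log2, coded Cy5 over Cy3, relative to the mean of STD, HF0, HF3 and HF4 of the experiment) of the 65 P450 genes in rows and 12 extracts in columns, ordered by range; the vertical line parts experiment 1 from experiment 2. Cyp2e1, in the top row, is at 1.31 and 1.37 in the STD extracts and at 1.65 and 1.58 in HF1-REV and HF4-REV, while most genes stay near 0 in experiment 1.

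The median range was 0.97 for 4 measured steroid synthesis genes (of 6 listed), 0.64 for 6 cholesterol and bile acid genes, 0.70 for 3 vitamin D genes and 1.25 for 2 retinoic acid genes (of 3). It was 1.09 for the 3 CYP1 genes that the aryl hydrocarbon receptor can induce, 0.87 for 11 CYP4 fatty acid hydroxylases, 0.78 for 31 CYP2 genes and 0.75 for 4 CYP3 genes. The aromatase gene Cyp19a1 and the adrenal 11-beta-hydroxylase gene Cyp11b1 were among the listed genes that the arrays as annotated did not name.

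Cyp2e1 was the P450 gene with the widest range, and its promoter is shown with those of Cyp2f2 and Cyp4b1, which also read negative in high fat groups over STD. Each is the 250 bases before the RefSeq start in GRCm38.p6, written 5′ to 3′ on the gene's strand. They lie at chr7:140763569-140763818 (plus strand) for Cyp2e1, chr7:27119705-27119954 (plus) for Cyp2f2 and chr4:115647722-115647971 (minus) for Cyp4b1. Capitals mark exact matches, on either strand, to 4 motifs, which do not overlap there. The first, TATAAA, is the letters of the TATA box. The second, CCAAT, reads ATTGG where it lies on the other strand. The third, AGGTCA, is a single site of many nuclear receptors. The last one searched was GCGTG, which holds the core that the aryl hydrocarbon receptor binds.
Cyp2e1: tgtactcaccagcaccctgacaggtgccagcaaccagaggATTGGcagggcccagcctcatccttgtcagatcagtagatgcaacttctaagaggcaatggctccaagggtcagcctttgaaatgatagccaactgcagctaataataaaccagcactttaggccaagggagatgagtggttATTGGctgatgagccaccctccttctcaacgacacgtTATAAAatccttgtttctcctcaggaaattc
Cyp2f2: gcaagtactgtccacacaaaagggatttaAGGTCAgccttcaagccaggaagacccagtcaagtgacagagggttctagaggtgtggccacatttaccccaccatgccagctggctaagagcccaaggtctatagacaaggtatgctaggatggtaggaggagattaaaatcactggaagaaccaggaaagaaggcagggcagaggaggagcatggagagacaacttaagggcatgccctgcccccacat
Cyp4b1: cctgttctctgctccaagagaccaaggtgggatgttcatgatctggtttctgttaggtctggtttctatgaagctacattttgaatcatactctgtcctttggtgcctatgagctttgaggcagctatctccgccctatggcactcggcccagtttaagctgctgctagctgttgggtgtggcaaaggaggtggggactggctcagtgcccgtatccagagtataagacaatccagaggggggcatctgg
The Cyp2e1 window holds TATAAA from position -31 and ATTGG from -210 and -68, counted from the start. The Cyp2f2 window holds 1 AGGTCA, from -221, and the Cyp4b1 window none of the letters searched. TATAAA occurs in 12.37% of 32851 RefSeq promoter windows of that length, and in 18 of 56 windows (32.14%) of the 49 P450 genes with an entry. CCAAT is in 33.85% of all windows and 24 of the 56, AGGTCA in 14.02% and 12, and GCGTG in 28.16% and 13. A match is a description of letters, not of a bound site.

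Does the P450 expression of fat differ between mice on the high fat and on the normal diet? Cyp2e1 was the P450 gene with the largest ratios. Its group value was 1.31 and 1.37 in the STD extracts of experiments 1 and 2. HF0 was at -0.40 and -0.49, HF3 at -0.67 and -0.28, and HF4 at -0.24 and -0.61. Both STD values thus lay above all 6 values of HF0, HF3 and HF4. The share of all features with such a split was not counted, for this gene or for those below. The fitted ratio to STD was -1.78 ± 0.19 for HF0 (adjusted p = 0.499), -1.81 ± 0.19 for HF3 (adjusted p = 0.457) and -1.77 ± 0.19 for HF4 (adjusted p = 0.0402). These comparisons share the STD extracts, and in experiment 2 they all rest on the 4 arrays of HF0 with STD. The sizes are near equal while the adjusted p differs, because the adjustment runs over all features of each comparison. In HF4 against STD, Cyp2e1 was the 1 of 65 P450 genes called, where 0.437% of all features were called. That call was lost without 1 array of HF0 with STD in experiment 2 (-1.73, adjusted p = 0.0510) and under quantile normalization (-1.79, adjusted p = 0.0865). In HF0 and HF3 against STD, 0 P450 genes and 0% of features passed; 6 and 7 P450 genes had an unadjusted p under 0.05, against 7.36% and 7.47% of features.

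On single arrays Cyp2e1 was negative in all 16 hybridisations of a high fat group with a normal diet group, the reversal groups included. The lowest was -2.90, the median -1.65 and the highest -0.58. HF0 over STD read -1.58 and -1.07 in experiment 1, and -1.67, -2.27, -1.63 and -1.89 in experiment 2. HF3 over STD read -2.90 and -2.29, and HF4 over STD -1.72 and -0.90. Against the reversal groups the arrays gave -0.70 and -0.58 for HF1, -1.08 and -0.88 for HF3, and -1.91 and -2.47 for HF4. Cyp2e1 was the only 1 of 65 P450 genes on 1 side of 0 on all 16 arrays, a pattern held by 30 of 22879 features (0.131%). The arrays share extracts, so they are not 16 separate tests.

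**Figure D2:**
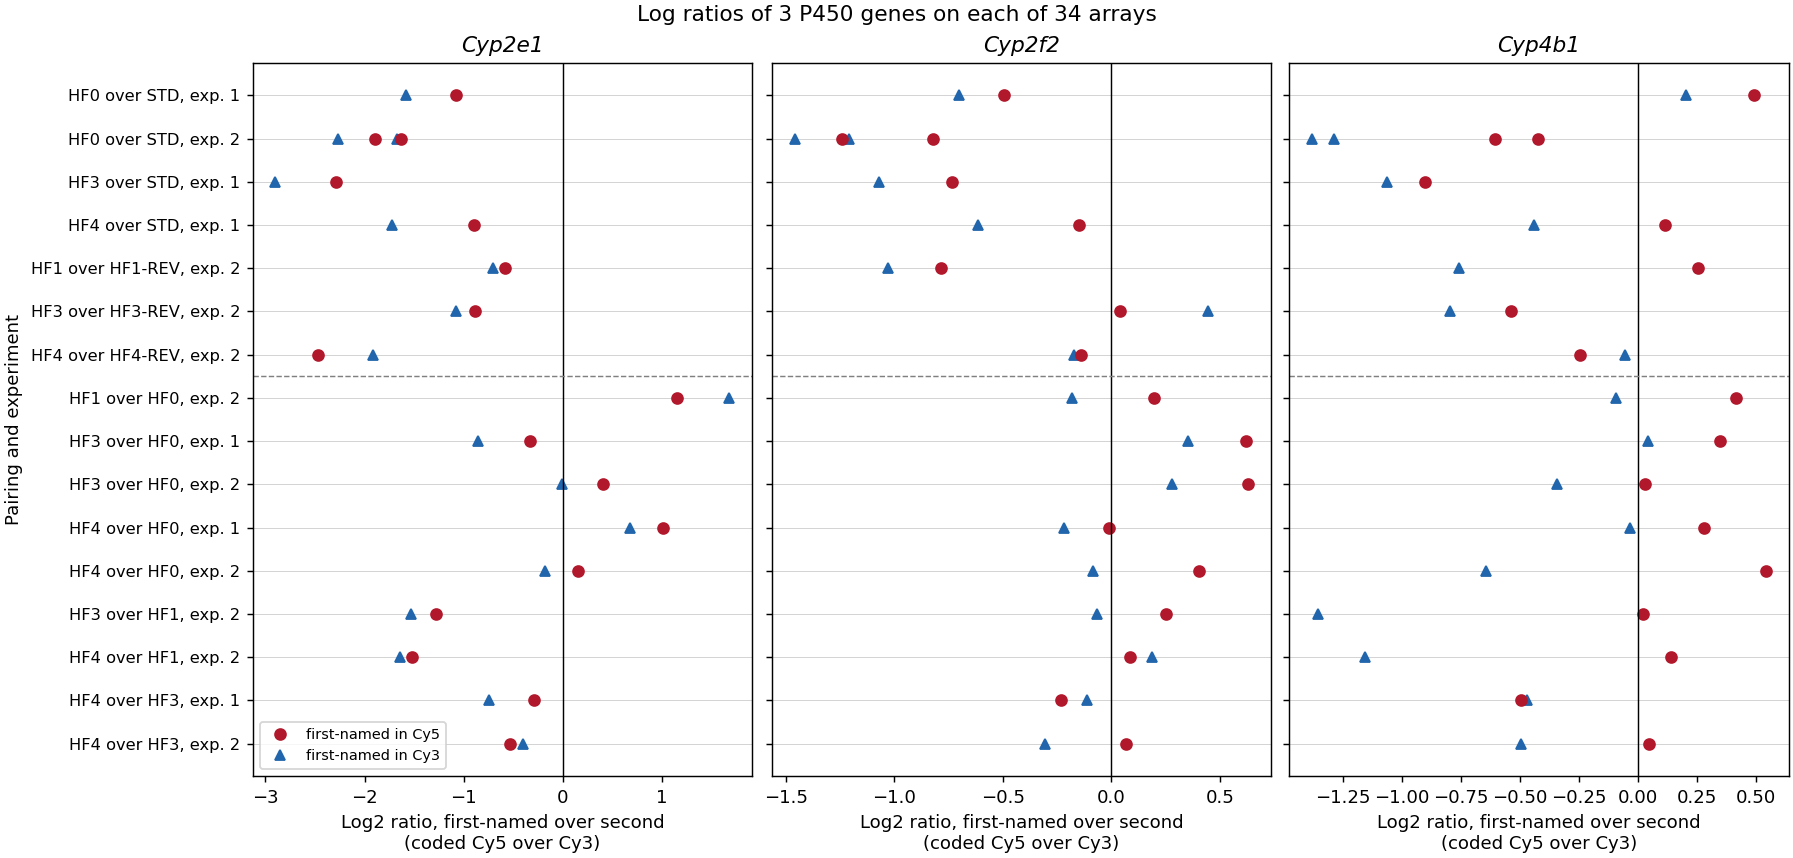
Log2 ratio (horizontal axis, coded Cy5 over Cy3, own scale per panel) of Cyp2e1, Cyp2f2 and Cyp4b1 on each of 34 arrays, by pairing and experiment; circles have the first-named group in Cy5 and triangles in Cy3, and the dashed line parts high fat over normal diet pairings from pairings among high fat groups. All 16 Cyp2e1 points above the dashed line lie left of 0, from -2.90 to -0.58, and HF1 over HF0 lies right of it at 1.16 and 1.68.

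Cyp2f2, best known as the enzyme of airway club cells that activates naphthalene, also read negative against STD. Its group value was 0.47 and 0.76 in STD, against -0.24 and -0.43 in HF0, -0.06 and -0.10 in HF3, and -0.17 and -0.23 in HF4. The STD values lay above those of the 3 high fat groups, and the share of all features with such a split was not counted. The fitted ratio was -0.95 ± 0.15 in HF0 (adjusted p = 0.629), -0.70 ± 0.15 in HF3 (adjusted p = 0.626) and -0.81 ± 0.15 in HF4 (adjusted p = 0.0904), so it passed in none of the 3. With scale normalization HF4 against STD passed (-0.79, adjusted p = 0.0282), and without the experiment block too (adjusted p = 0.0273). It was negative on 14 of the 16 diet arrays, the exceptions being both arrays of HF3 over HF3-REV at 0.45 and 0.04. HF1 over HF1-REV read -1.03 and -0.78, with a fitted -0.91 ± 0.21 (adjusted p = 0.613).

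Further P450 genes leaned the same way without passing. Cyp4b1, a fatty acid and xenobiotic hydroxylase, had group values of 0.20 and 0.79 in STD, and all 6 values of HF0, HF3 and HF4 lay lower, from -0.35 to 0.01. Its fitted ratio to STD was -0.56 ± 0.22 in HF0, -0.68 ± 0.22 in HF3 and -0.73 ± 0.22 in HF4, with adjusted p = 0.674, 0.626 and 0.217. On the arrays that held HF0 and STD together, however, Cyp4b1 was at 0.20 and 0.49 in experiment 1 and between -1.38 and -0.43 in experiment 2. Cyp2j5, an arachidonic acid epoxygenase, was at 0.43 and 0.47 in STD and between -0.40 and 0.09 in the 3 high fat groups. It was negative on 10 of the 16 diet arrays. The arrays of HF0 over STD averaged 0.24 in experiment 1 and -0.38 in experiment 2 for this gene. Its ratio was -0.73 ± 0.16 in HF3 (adjusted p = 0.626) and -0.67 ± 0.16 in HF4 (adjusted p = 0.160). Cyp26b1, which degrades retinoic acid, was negative on 14 of the 16 diet arrays with a median of -0.35, but its fitted ratios to STD of -0.41 ± 0.26, 0.06 ± 0.26 and -0.34 ± 0.26 in HF0, HF3 and HF4 stayed within 2 SE of 0.

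On the positive side the largest ratios to STD were those of Cyp2a12 in HF4, 0.71 ± 0.38 (adjusted p = 0.430), and Cyp2s1 in HF3, 0.64 ± 0.28 (adjusted p = 0.626). They were smaller than the negative ratios of Cyp2e1 but near in size to those of Cyp4b1 and Cyp2j5, and neither passed. In HF0 against STD, Cyp1b1 had 0.51 ± 0.21 (adjusted p = 0.674) and Cyp2j9 0.48 ± 0.22 (adjusted p = 0.685). Cyp3a13, a steroid and drug hydroxylase, had 0.40 ± 0.14 there (adjusted p = 0.674). Cyp4v3, a fatty acid omega-hydroxylase, had 0.37 ± 0.12 (adjusted p = 0.674). The Cyp1b1 value came from experiment 2: its group value was 0.08 in HF0 and 0.02 in STD in experiment 1, but 0.50 and -0.46 in experiment 2. The Cyp2j9 and Cyp2s1 values did too. Cyp2j9 was at 0.06 in both HF0 and STD in experiment 1, but at 0.53 and -0.42 in experiment 2. Cyp2s1 was at -0.01 in HF3 and -0.03 in STD in experiment 1, but at 0.65 and -0.63 in experiment 2. Over the family, 39 of 65 ratios were positive in HF0 against STD, with a median of 0.04. It was 34 of 65 in HF3 and in HF4, with medians of 0.02 and 0.00. The medians over all features were 0.01, 0.01 and 0.00.

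Of the 11 CYP4 genes, 7 were positive in HF0 against STD and 3 in HF4 against STD, with 0 called in both. The 6 cholesterol and bile acid genes spanned -0.44 (Cyp7b1, the oxysterol 7-alpha-hydroxylase) to 0.22 (Cyp46a1, the brain cholesterol 24-hydroxylase) in HF4 against STD. Cyp27a1, the mitochondrial sterol 27-hydroxylase, read -0.21, -0.06 and -0.19 in HF0, HF3 and HF4. Cyp2d22 read -0.15, -0.22 and -0.34 in the same order. The 3 vitamin D genes lay between -0.25 and 0.15 in HF4 against STD. None of these passed the test.

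Markers of fat cells moved with the Cyp2e1 comparison. Of 11 measured adipocyte markers, 10 were negative in HF0, in HF3 and in HF4 against STD, with medians of -0.59, -0.38 and -0.48. Endothelial markers were negative in 4, 5 and 6 of 6 in the same order, with medians of -0.46, -0.32 and -0.62. STD over HF0 had an endothelial median of 0.04 in experiment 1 and 0.92 in experiment 2. For macrophages, 8, 7 and 8 of 8 markers were positive, with medians of 0.54, 0.51 and 0.28. Epididymis markers were negative, 12 of 12 in each of the 3 comparisons, with medians from -3.46 to -2.23. Male germ cell markers were negative in 20 of 20 in HF0 (median -2.09), but positive in 18 of 20 in HF3 (median 0.53) and 20 of 20 in HF4 (median 1.77). The Cyp2e1 ratio lay beyond the lowest adipocyte marker in each, which was at -1.34, -1.72 and -1.49. With the STD extract of experiment 2 left out, the Cyp2e1 ratios to STD were -1.74, -1.77 and -1.72 in HF0, HF3 and HF4, the last with an adjusted p of 0.0126. The part of these cell types in the ratios was not tested.

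**Figure D3:**
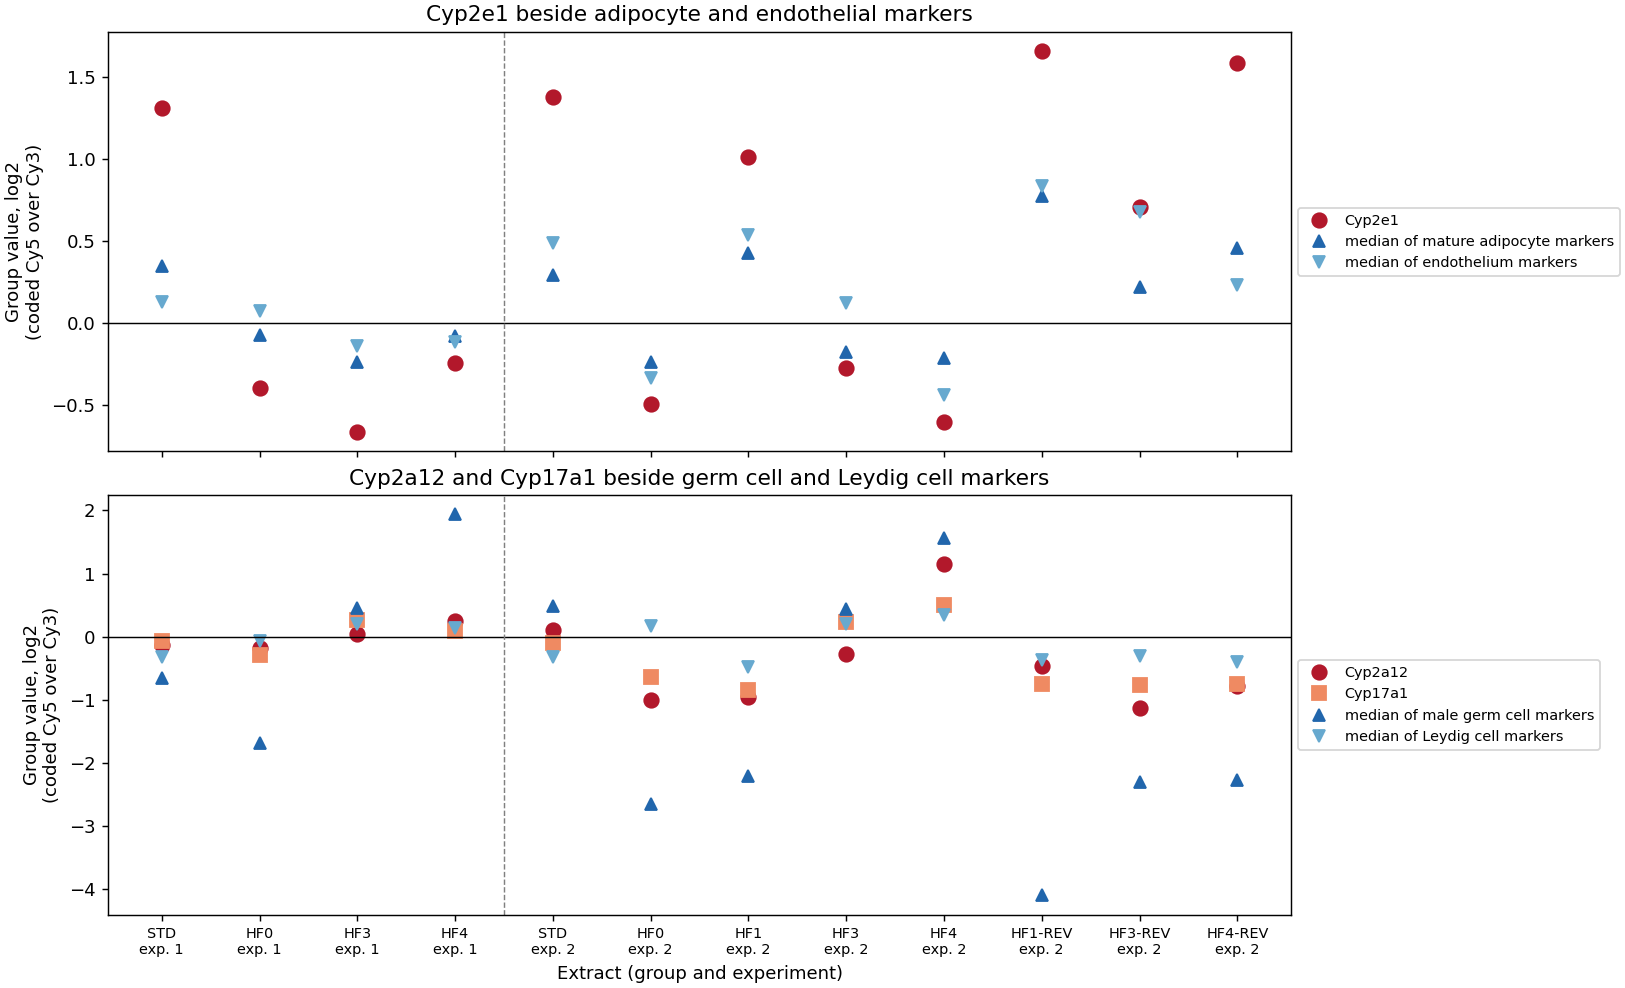
Group values (log2, coded Cy5 over Cy3) by extract, with Cyp2e1 beside the medians of adipocyte and endothelial markers in the upper panel, and Cyp2a12 and Cyp17a1 beside the medians of germ cell and Leydig cell markers in the lower panel; the dashed line parts the experiments. In the upper panel Cyp2e1 and the adipocyte median are positive in the same extracts, with Cyp2e1 at 1.65 and the median at 0.77 in HF1-REV; in the lower panel the germ cell median spans -4.09 in HF1-REV to 1.94 in HF4 of experiment 1.

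Did the P450 genes shift over the generations on the high fat diet? Cyp2e1 did not follow the order of generations: it stood apart in HF1, whose group value of 1.01 lay below STD (1.31 and 1.37) and above every HF0, HF3 and HF4 value. HF1 was positive over the other high fat groups on all 6 arrays that held it with them, from 1.16 to 1.68. HF1 over HF0 read 1.68 and 1.16, HF3 over HF1 -1.53 and -1.28, and HF4 over HF1 -1.64 and -1.52. The fitted ratio was 1.46 ± 0.24 in HF1 against HF0 (adjusted p = 0.689), -1.48 ± 0.24 in HF3 against HF1 (adjusted p = 0.243) and -1.44 ± 0.24 in HF4 against HF1 (adjusted p = 0.0404). The 3 comparisons share the single HF1 extract. HF3 over HF0 was fitted at -0.03 ± 0.19, HF4 over HF0 at 0.02 ± 0.19 and HF4 over HF3 at 0.05 ± 0.19. The arrays that held these groups together were less even than the fitted values. HF4 over HF3 was negative on all 4, at -0.75 and -0.29 in experiment 1 and -0.40 and -0.53 in experiment 2, while the group values, solved over all pairings, gave 0.42 and -0.33 in the 2 experiments. HF4 over HF0 read 0.68 and 1.01 in experiment 1 and -0.18 and 0.15 in experiment 2.

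In HF4 against HF1 Cyp2e1 was the 1 of 65 P450 genes called, with 2.81% of all features called. In HF1 against HF0 and HF3 against HF1, 0 of 65 and 0% of features passed; 4 and 5 of the 65 had an unadjusted p under 0.05, against 7.18% and 9.12% of features. All 6 arrays of HF1 with HF0, HF3 or HF4 lay on 1 side of 0 for 7 of 65 P450 genes, a share near the 10.5% of all features. Beside Cyp2e1, HF1 was positive for Cyp1a1 (0.21 to 0.54) and Cyp2c40 (0.05 to 1.07). It was negative for Cyp11a1 (-0.82 to -0.02), Cyp17a1 (-1.60 to -0.04), Cyp2c70 (-0.76 to -0.20) and Cyp39a1, an oxysterol hydroxylase (-0.54 to -0.07). Adipocyte markers were positive in HF1 against HF0 in 11 of 11 (median 0.39) and negative in HF4 against HF1 in 11 of 11 (median -0.58, lowest -1.34). Their part in the Cyp2e1 ratio was not tested. The call in HF4 against HF1 was lost without 1 array of HF0 with STD in experiment 2 (-1.42, adjusted p = 0.0544) or without 1 array of HF4 with STD in experiment 1 (-1.39, adjusted p = 0.0543). It was also lost under scale normalization (-1.37, adjusted p = 0.0883), where Cyp17a1 passed in its place (1.05, adjusted p = 0.0489), and under quantile normalization (-1.63, adjusted p = 0.0797).

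HF4 against HF0 called 963 features (4.21%), 959 of them positive, and 0 of the 65 P450 genes; 8 of the 65 had an unadjusted p under 0.05, against 10.9% of features. In HF3 against HF0 and HF4 against HF3, 0 P450 genes and 0% of features passed. There 5 and 2 P450 genes had an unadjusted p under 0.05, against 7.80% and 5.50%. The most negative P450 ratios in HF4 against HF0 were those of Cyp2c40 (-0.43 ± 0.17), Cyp4v3 (-0.40 ± 0.12) and Cyp1b1 (-0.34 ± 0.21). The P450 genes with the most positive ratios in HF4 against HF0 were Cyp2a12 and the steroid synthesis genes Cyp17a1 and Cyp11b2.

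Cyp2a12, a hepatic steroid hydroxylase, had its highest group value in HF4 of experiment 2, at 1.15, against 0.25 in HF4 of experiment 1. HF3 was at 0.04 and -0.27, HF0 at -0.17 and -0.99, HF1 at -0.96 and STD at -0.12 and 0.11. HF4 lay above every other extract in each experiment, and the share of all features with that order was not counted. HF4 over HF0 read 0.35 and 0.04 on the arrays of experiment 1 and 2.91 and 1.29 on those of experiment 2. The fitted ratio was 1.29 ± 0.38 in HF4 against HF0 (adjusted p = 0.206), 1.66 ± 0.48 in HF4 against HF1 (adjusted p = 0.169) and 0.82 ± 0.38 in HF4 against HF3 (adjusted p = 0.891), none past the threshold.

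Cyp17a1 encodes the 17-alpha-hydroxylase that leads from progestins to androgens, and Cyp11a1 the side-chain cleavage enzyme that starts steroid synthesis from cholesterol. Cyp17a1 was at 0.27 and 0.23 in HF3 and at 0.08 and 0.50 in HF4, above -0.29 and -0.64 in HF0, -0.84 in HF1 and -0.07 and -0.09 in STD. Both HF3 and both HF4 values were higher than all the others, and the share of all features with such a split was not counted. The fitted ratio was 0.71 ± 0.19 in HF3 against HF0 (adjusted p = 0.325), 0.75 ± 0.19 in HF4 against HF0 (adjusted p = 0.119) and 1.13 ± 0.24 in HF4 against HF1 (adjusted p = 0.0739). The arrays that held HF4 with HF0 disagreed between experiments, at -0.25 and -0.19 in experiment 1 and 0.99 and 1.85 in experiment 2. Those of HF3 with HF0 were all positive, at 0.79 and 1.38, then 0.40 and 0.98.

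Cyp11a1 was highest in HF3, at 0.21 and 0.36, and HF3 over HF0 was positive on all 4 arrays with a fitted 0.46 ± 0.12 (adjusted p = 0.325). In HF4 it was at 0.01 and -0.12, with 0.13 ± 0.12 against HF0. Of the other steroid genes, Cyp11b2, the aldosterone synthase gene, had 0.53 in HF4 against HF0 (adjusted p = 0.202) and Cyp21a1, the 21-hydroxylase gene, -0.12 (adjusted p = 0.869). Of 5 measured steroid partner genes outside the P450 family (of 6 listed), 3 were positive and 2 negative in HF4 against HF0, with 0 called. Hsd17b3, which makes testosterone, had 0.60 ± 0.13 (adjusted p = 0.0665), and Hsd3b1, which makes progesterone, 0.68 ± 0.14 (adjusted p = 0.0544). Star had 0.23 ± 0.27, Hsd3b6 -0.12 ± 0.19 and Hsd11b1, which activates glucocorticoids, -0.38 ± 0.25.

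All 20 germ cell markers were positive in HF3 and in HF4 against HF0, with medians of 2.89 and 3.80. The Leydig cell list, with Star, Hsd3b6 and Hsd17b3 measured of 5, was positive in 3 and 2 of 3, with medians of 0.06 and 0.23. The part of testicular RNA in the Cyp17a1, Cyp11a1 and Cyp2a12 ratios was not tested.

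**Figure D4:**
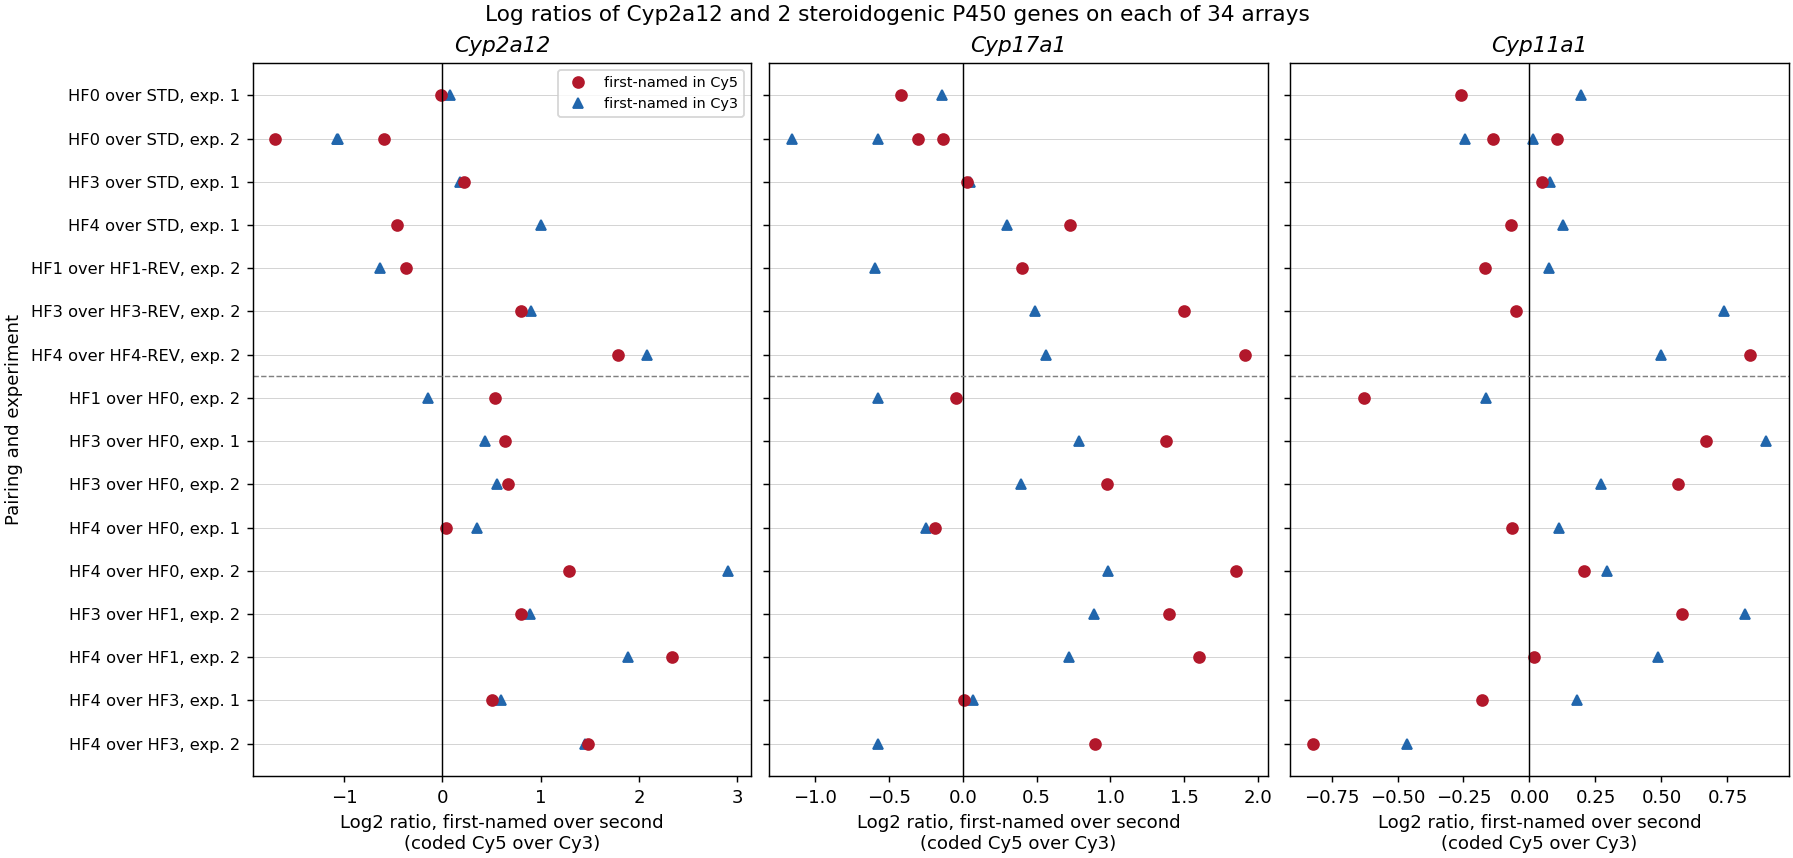
Log2 ratio (horizontal axis, coded Cy5 over Cy3, own scale per panel) of Cyp2a12, Cyp17a1 and Cyp11a1 on each of 34 arrays, by pairing and experiment; circles have the first-named group in Cy5 and triangles in Cy3. HF4 over HF0 in experiment 2 sits at 1.29 and 2.91 for Cyp2a12 and at 0.99 and 1.85 for Cyp17a1, but at -0.25 and -0.19 for Cyp17a1 in experiment 1.

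Did return to the normal diet shift the P450 genes? HF4 against HF4-REV had the most calls: 9 of 65 P450 genes passed (13.8%), beside 11.2% of all features, so the family's share lay near the background. At an unadjusted p under 0.05 it was 20 of 65 (30.8%) against 31.4%. On the negative side were Cyp2e1, Cyp4f18, Cyp2r1, Cyp3a25 and Cyp2b19, and on the positive side Cyp1a2, Cyp17a1, Cyp4a14 and Cyp11a1. HF4-REV is 1 extract, on 2 arrays with swapped dyes.

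The largest ratio was that of Cyp2e1, at -2.01 ± 0.24 (adjusted p = 0.0135), from arrays at -1.91 and -2.47. Cyp4f18, a leukotriene B4 hydroxylase of myeloid cells, had -1.08 ± 0.15 (adjusted p = 0.0179), from -0.65 and -1.43. Cyp1a2, a hepatic enzyme for aromatic amines, had 1.24 ± 0.20 (adjusted p = 0.0212), from 1.10 and 1.46. Both arrays had the same sign for each of the 9 genes, as they did for 34 of the 65 (52.3%) and for 61.3% of all features.

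Cyp3a25, a steroid and drug hydroxylase, had -0.87 ± 0.14 (adjusted p = 0.0219), from -0.91 and -0.83. Cyp2r1, the vitamin D 25-hydroxylase, had -0.90 ± 0.18 (adjusted p = 0.0350), from -0.75 and -0.88. Cyp4a14, an omega-hydroxylase of fatty acids that PPAR-alpha induces, had 0.76 ± 0.16 (adjusted p = 0.0364), from 0.67 and 0.72. These 3 had arrays that lay close together, but the fitted ratios also rest on the arrays that place HF4 among the other groups.

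Cyp11a1 had 0.73 ± 0.16 (adjusted p = 0.0384), from 0.50 and 0.84. The last 2 had wider arrays. Cyp2b19, a keratinocyte epoxygenase, had -0.80 ± 0.18 (adjusted p = 0.0428), from -1.32 and -0.33, and without the array with HF4 in Cy3 it was at -0.31 (adjusted p = 0.267). Cyp17a1 had 1.03 ± 0.24 (adjusted p = 0.0460), from 0.57 and 1.91, and without the array with HF4 in Cy5 it was at 0.36 (adjusted p = 0.299). Of the 34 fits that each left out 1 array, the call was lost in 15 for Cyp17a1, 12 for Cyp2b19, 9 for Cyp4a14, 2 for Cyp11a1 and 1 for Cyp3a25, and in 0 for Cyp2e1, Cyp4f18, Cyp1a2 and Cyp2r1. Without 1 array of HF3 with HF0 in experiment 2, 4 calls were lost at once: Cyp4a14 (0.78, adjusted p = 0.0880), Cyp11a1 (0.73, adjusted p = 0.0630), Cyp2b19 (-0.81, adjusted p = 0.0885) and Cyp17a1 (1.02, adjusted p = 0.0695). Cyp3a25 was lost without 1 array of HF0 with STD in experiment 2 (-0.83, adjusted p = 0.0557). All 9 calls were lost under quantile normalization, while under scale normalization Cyp1a2 and Cyp4f18 kept theirs.

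**Figure D5:**
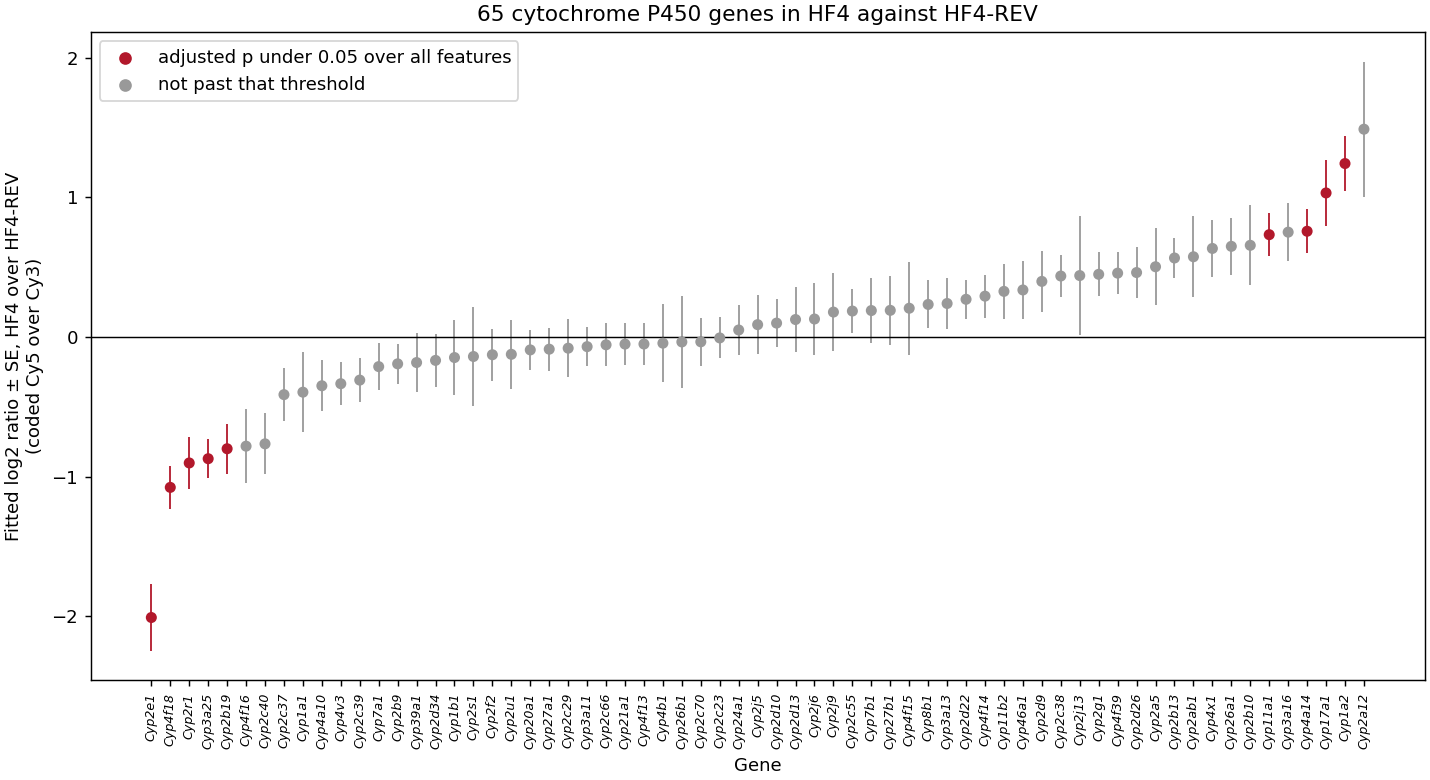
Fitted log2 ratio ± SE (vertical axis, HF4 over HF4-REV, coded Cy5 over Cy3) of the 65 P450 genes in order of size; red points passed an adjusted p of 0.05 over all features. The 9 red points run from Cyp2e1 at -2.01 to Cyp1a2 at 1.24, and Cyp2a12 has the highest ratio, 1.49, with an SE of 0.48 and no call.

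In HF1-REV the group value of Cyp1a2 was 0.01 and in HF3-REV -0.12, against -1.25 in HF4-REV; Cyp2r1 was at -0.30, -0.02 and 0.99 in the same order. Those calls therefore rest on the HF4-REV extract. Cyp4a14 was at 0.12 in HF1-REV, -1.29 in HF3-REV and -0.83 in HF4-REV. Its dye orientations often opposed: HF0 over STD in experiment 2 read 0.61 and 0.76 with HF0 in Cy3 but -0.61 and -0.29 with HF0 in Cy5. Cyp3a25 was at 0.10, -0.64 and 0.82, so HF3-REV and HF4-REV lay on opposite sides.

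In HF3 against HF3-REV, 0 of 65 P450 genes passed, beside 0.0874% of all features; 9 of 65 had an unadjusted p under 0.05, against 15.4%. Cyp4a14 came nearest, with 1.24 ± 0.16 (adjusted p = 0.0543) from arrays at 0.70 and 1.71. Cyp2e1 followed with -1.18 ± 0.24 (adjusted p = 0.115), Cyp3a25 with 0.69 ± 0.14 (adjusted p = 0.116) and Cyp17a1 with 1.01 ± 0.24 (adjusted p = 0.143).

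In HF1 against HF1-REV, 0 of 65 and 0% of features passed, and 3 of 65 had an unadjusted p under 0.05, against 3.59%. Cyp2f2 had the most negative ratio, -0.91 ± 0.21, followed by Cyp26b1 with -0.83 ± 0.36 and Cyp2e1 with -0.64 ± 0.27. The most positive was Cyp2b13 at 0.64 ± 0.16 (adjusted p = 0.669). The Cyp26b1 arrays read -0.89 and -0.77. HF1-REV had the highest Cyp26b1 value of all extracts, 1.26.

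The 3 reversal comparisons were set against each other in a test added after the results had been seen, and 0 P450 genes and 0% of all features passed in each. The Cyp2e1 ratio in HF4 minus that in HF1 was -1.37 ± 0.36 (adjusted p = 0.149), and HF4 minus HF3 was -0.83 ± 0.32 (adjusted p = 0.278). Cyp3a25 in HF4 minus HF3 was -1.56 ± 0.19 (adjusted p = 0.0756). Adipocyte markers were negative in 10, 9 and 10 of 11 in HF1, HF3 and HF4 over their reversal groups, with medians of -0.35, -0.53 and -0.71. Germ cell markers were positive in 18, 20 and 20 of 20, with medians of 1.15, 2.63 and 3.95. Epididymis markers were positive in 11, 12 and 8 of 12, with medians of 0.98, 1.06 and 0.48. Endothelial markers were negative in 6, 5 and 4 of 6, with medians of -0.31, -0.58 and -0.55. The part of these cell types in the 9 calls was not tested.

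The genes that serve P450 enzymes were measured for 48 of 51 listed, and 0 passed in any of the 12 comparisons. With an unadjusted p under 0.05 they were between 0 of 48 in HF4 against HF3 and 13 of 48 in HF4 against HF4-REV, where 5.50% and 31.4% of all features had such a p. Of the electron suppliers, all 4 measured were negative in HF4 against STD, among them the cytochrome b5 gene Cyb5b at -0.75 ± 0.31 (adjusted p = 0.340). More negative still was Nqo1, a quinone reductase, at -0.84 ± 0.23 (adjusted p = 0.193). The most positive partner genes there were Star, which moves cholesterol into mitochondria, at 1.01 ± 0.27 (adjusted p = 0.179) and Nr1h4, the bile acid receptor, at 0.74 ± 0.29 (adjusted p = 0.311). For Cyb5b, Nqo1, Star and Nr1h4 the difference between HF4 and STD was wider in experiment 2. Their STD group values in experiments 1 and 2 were 0.08 and 0.97 for Cyb5b and 0.21 and 0.77 for Nqo1. They were -0.31 and -0.99 for Star, and -0.14 and -0.96 for Nr1h4. The enzymes that act on P450 products included Ephx2, the soluble epoxide hydrolase, at -0.57 ± 0.19, -0.65 ± 0.19 and -0.70 ± 0.19 in HF0, HF3 and HF4 against STD. Adh1, the class I alcohol dehydrogenase, had -1.88 ± 0.48 in HF4 against HF4-REV (adjusted p = 0.0582) and 1.37 ± 0.48 in HF1 against HF0 (adjusted p = 0.689), where Cyp2e1 read -2.01 and 1.46. The signs of these genes opposed each other in HF3 against STD, where Adh1 had 0.41 ± 0.38 and Cyp2e1 -1.81, and in HF1 against HF1-REV, where Adh1 had 0.18 ± 0.53 and Cyp2e1 -0.64. Ephx1, the microsomal epoxide hydrolase, had -1.68 ± 0.51 in HF4 against HF4-REV (adjusted p = 0.0850). Star and Pgrmc2, a heme-binding P450 partner, were the most positive there, at 0.86 ± 0.34 (adjusted p = 0.146) and 0.75 ± 0.23 (adjusted p = 0.0868).

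Among 20 receptors, Pparg, the regulator of fat cell identity and also one of the adipocyte markers, had group values of 0.67 and 0.05 in STD, 1.23 in HF1-REV, 0.77 in HF3-REV and 0.83 in HF4-REV. In high fat groups it was at -0.18 and -0.24 in HF0, 0.70 in HF1, -0.27 and 0.22 in HF3, and -0.22 and -0.03 in HF4. HF1 and the HF3 value of experiment 2 thus lay above STD of experiment 2. Its ratio was -0.95 ± 0.32 in HF4 against HF4-REV (adjusted p = 0.107). Ppara, the receptor that drives Cyp4a genes in liver, had 0.67 ± 0.19 there (adjusted p = 0.0708). Of the Cyp4a genes measured, Cyp4a14 had 0.76 there, but Cyp4a10 averaged -0.47 on the arrays of HF4 over HF4-REV. In HF3 against HF3-REV Cyp4a14 had 1.24, while Ppara was at -0.15 and 0.14 in HF3 and at 0.19 in HF3-REV. The part of Ppara in these ratios was not tested. The aryl hydrocarbon receptor gene Ahr stayed between -0.29 and 0.36 in the 12 extracts. Of 3 P450 genes outside the symbol form, Tbxas1 (thromboxane synthase) had 0.81 ± 0.26 and Ptgis (prostacyclin synthase) 0.63 ± 0.23 in HF0 against STD (adjusted p = 0.674 for both), while Cyp51, the sterol 14-demethylase, stayed between -0.43 and 0.27.

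The 2 experiments gave a P450 gene the same sign in 46 of 65 cases (70.8%) in HF0 against STD, where all features had 55.1%. It was 26 of 65 (40.0%) in HF3 against STD and 33 (50.8%) in HF4 against STD, against 49.0% and 59.8% of all features. For HF3 against HF0 it was 39 (60.0%), for HF4 against HF0 44 (67.7%) and for HF4 against HF3 36 (55.4%), against 56.5%, 63.4% and 57.5%. On the arrays that held both groups, all of experiment 1 lay on the other side of 0 from all of experiment 2 for 7 of 65 P450 genes in HF0 over STD (11% of all features). It was 4 of 65 in HF3 over HF0 (10.3%), 3 in HF4 over HF0 (6.2%) and 2 in HF4 over HF3 (6.52%). In experiment 1 the median size of a P450 ratio was 0.10 in HF0 against STD, and in experiment 2 0.15. Over all features it was 0.10 and 0.19.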

How the data were processed

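The authors deposited 1 log ratio per probe and array (25344 probes, 34 arrays); the deposited log2 ratios, as read here, run from -6.31 to 7.99 with array medians of -0.062 to 0.046. Per the labels, RNA was extracted with different reagents in the 2 experiments. The scanner, background correction, normalization, numerator and log base behind the ratios are unknown. Probes were named through the platform annotation, updated by gene ID (21082 probes with 1 symbol, 30 with several, 4232 with none). Each array was centred on its median, probes of a gene were averaged, dye swaps were turned and averaged, and group values were solved by least squares within each experiment. The 12 values entered limma 3.58.1 in R 4.3.3 (lmFit, eBayes), blocked by experiment. Residual degrees of freedom were 3, the prior's were 3.16, and p-values were adjusted over 22879 features by Benjamini-Hochberg. In comparisons with HF1 or a reversal group, HF0, HF3 and HF4 enter as their average over both experiments. The solving of group values and the fitted ratios were checked on simulated arrays without noise. Calls were checked on simulated group values in HF4 against STD only. Centring, probe averaging and the calls of groups with n = 1 were not covered by these checks. Preparation and figures used Python 3.11.15, numpy 2.4.6, pandas 2.3.3 and matplotlib 3.10.9.

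The members and all lists were chosen with earlier results of these data known. P450 genes were named if called, among the 3 most positive or negative of a comparison, among the 10 widest ranges, or on a fixed list of 14 measured genes; others were named for their array signs or role after their values were seen. Of the partner genes, the 2 most positive and 2 most negative of main comparisons were named, and others after their values were seen. Proteins were not used here. Probe sequences were not used here, so cross-hybridisation between close P450 paralogs (Cyp2c, Cyp2d, Cyp4a, Cyp3a) was not tested.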

Additional observations from a re-analysis of the deposited data

Results flagged for a closer look

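In 16 combinations of a P450 gene and a pairing, of 260, all arrays of experiment 1 lay on the other side of 0 from all arrays of experiment 2. These differences were not tested. Of the 16, 5 concern a gene on the fixed list or among the 3 most positive or negative of that comparison. For Cyp4b1 in HF0 over STD the array mean was 0.35 in experiment 1 and -0.92 in experiment 2. In the same pairing Cyp2j9 had -0.28 and 0.95, and Cyp2s1 had -0.29 and 0.60. Cyp17a1 in HF4 over HF0 had -0.22 and 1.42. Cyp2s1, an extrahepatic enzyme of epithelia, had 0.23 and -0.63 in HF4 over HF3. The experiments also differ in RNA extraction reagent, per the labels, and extraction and experiment cannot be told apart. For each of the 34 P450 genes named by rule, the 4 arrays of HF0 over STD in experiment 2 were searched for 1 outlying array. By a Dixon test, 0 of the 34 genes had one. These arrays are 2 per dye orientation, so a split by dye would not be flagged. Over all probes they correlated at 0.72 and 0.74 within an orientation, and at 0.35 to 0.48 between orientations. The search therefore does not show that the 4 arrays agree.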

How the results depend on the processing

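The main counts of called P450 genes were 1 in HF4 against STD, 1 in HF4 against HF1 and 9 in HF4 against HF4-REV, and 0 in the other 9 comparisons. Scale normalization gave 2 in HF4 against STD, 1 in HF3 against HF3-REV and 2 in HF4 against HF4-REV; the 1 in HF4 against HF1 was then Cyp17a1 and no longer Cyp2e1. Quantile normalization gave 0 in HF4 against STD, 0 in HF4 against HF1, 1 in HF3 against HF3-REV and 0 in HF4 against HF4-REV. Without the experiment block there were 2, 1, 2, 4 and 19 in HF4 against STD, HF0 and HF1, HF3 against HF3-REV and HF4 against HF4-REV. With the STD extract of experiment 2 dropped there were 1 in HF3 against HF1, 2 in HF4 against HF1, 1 in HF3 against HF3-REV and 15 in HF4 against HF4-REV. The arrays of HF0 with STD in experiment 2 carry 2 label dates, 2 arrays each, whose meaning the labels do not give; every other pairing lies within 1 date per experiment. In an alternative chosen after seeing the data, the earlier date alone gave 1 in HF3 against HF3-REV, and the later date alone gave 0 in HF4 against STD (Cyp2e1 -1.81, adjusted p = 0.0667) and 0 in HF4 against HF1 (Cyp2e1 -1.43, adjusted p = 0.0601). On those dates Cyp2e1 averaged -1.78 and -1.95. Leaving out each array in turn gave 0 to 1 in HF4 against STD, HF4 against HF1 and HF1 against HF1-REV, 0 to 7 in HF3 against HF3-REV, 5 to 18 in HF4 against HF4-REV and 0 elsewhere. The counts were 18 without the HF4 with HF4-REV array that has HF4 in Cy5 and 14 without the other, 5 without 1 array of HF3 with HF0 in experiment 2, 4 and 7 in HF3 against HF3-REV without either of its own arrays, and 1 in HF1 against HF1-REV without either of its own. The cause was not tested.

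Cyp2e1 in HF4 against STD lost its call without 1 array of HF0 with STD in experiment 2 (-1.73, adjusted p = 0.0510) and under quantile normalization (-1.79, adjusted p = 0.0865); its adjusted p ran from 0.0104 to 0.0865. In HF4 against HF4-REV its call survived each array left out but not scale (-1.53, adjusted p = 0.0522) or quantile normalization (-1.96, adjusted p = 0.0666). Cyp3a13 in HF1 against HF1-REV turned from 0.40 to -0.18 without 1 of its own arrays and was at 0.98 without the other. Of 2322 values of single genes under 43 settings, 2234 kept direction and side of the threshold, 68 lost a call, 19 gained one and 1 reversed. Without intensities, dim spots could not be set aside. Extracts were paired by experiment, as a block, and by nothing else: no further pairing by replicate number could be made, because the labels give the groups no shared numbers.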
